A study of Mus musculus with 21 samples.

Results

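Open chromatin was compared between cardiac and endothelial progenitors of the mouse before any Sox7 induction, from 4 of the series' 21 samples. ATAC-seq, in which a transposase cuts and tags accessible DNA, had given 1 peak list per sample, and 2 lists came from each cell type. Peaks of the 4 lists that overlapped by at least 1 bp were merged into 39574 regions. A region was called CPC-only when both cardiac lists held a peak and neither endothelial list did, and EPC-only in the reverse case. The rule gave 3050 CPC-only regions (7.71% of all merged regions) and 3172 EPC-only regions (8.02%), while 14349 regions (36.3%) had a peak in all 4 lists.

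All samples came from 1 line, A2lox-Sox7-Myc, mouse embryonic stem cells derived from E14Tg2a that carry a doxycycline-inducible, Myc-tagged Sox7 transgene, so the uninduced cells carry it too. The cells were grown as embryoid bodies (EBs), aggregates in which mesoderm forms, and were taken at day 4. CPC are the cells labelled PDGFRα+FLK1+ and EPC those labelled PDGFRα−FLK1+, and neither group had received doxycycline. The sort in the growth protocol is written as PDGFRα+FLK1−, unlike the gates in the sample characteristics, which were followed here. The induced libraries used for comparison had 1 µg/ml doxycycline for 1 day, with 2 libraries of each cell type. All positions are on GRCm38.

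FLK1, the VEGF receptor encoded by Kdr, appears on early mesoderm that can form blood, endothelium and heart. PDGFRα, a receptor for platelet-derived growth factors encoded by Pdgfra, persists on cells turning towards heart and mesenchyme and is lost from cells turning towards endothelium and blood. Endothelial and blood fates rely on ETS and GATA factors such as Fli1, Erg, Tal1 and Gata2, whereas cardiac fate relies on factors such as Gata4, Tbx20 and Hand2.

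Few of the cell type regions held a gene's start, and 6 that did are shown because they lie at genes of the 2 lineages or score among the highest. The sequences are RefSeq promoters of GRCm38.p6, from 250 bases before to 50 bases after the start site, written 5′ to 3′ on the gene's strand. Capitals mark matches on either strand. GATA letters were AGATAA, or the same with T first, TGATAA, and ETS letters were AGGAAG. Bmp4, at its only RefSeq start, and later starts of Lef1 and Col9a1 lay in CPC-only regions. Robo4 and Itga2b, at their only starts, and the second of 3 Egfl7 starts lay in EPC-only regions. The window shown is thus an alternative start for Lef1 (45.997 kb after the first), Col9a1 (17.593 kb) and Egfl7 (2.782 kb). Lef1 was open in all 4 lists at its other 3 starts, with scores of 364.31 and 119.82 in CPC and 542.77 and 274.63 in EPC. Egfl7 was open in all 4 lists at its last start, and the first starts of Egfl7 and Col9a1 held no region. The windows lie at chr14:46390620-46390919 on the minus strand for Bmp4, chr3:131156044-131156343 on the plus strand for Lef1, chr1:24194953-24195252 on the plus strand for Col9a1, chr2:26583615-26583914 on the plus strand for Egfl7, chr9:37401722-37402021 on the plus strand for Robo4 and chr11:102469834-102470133 on the minus strand for Itga2b.
Bmp4: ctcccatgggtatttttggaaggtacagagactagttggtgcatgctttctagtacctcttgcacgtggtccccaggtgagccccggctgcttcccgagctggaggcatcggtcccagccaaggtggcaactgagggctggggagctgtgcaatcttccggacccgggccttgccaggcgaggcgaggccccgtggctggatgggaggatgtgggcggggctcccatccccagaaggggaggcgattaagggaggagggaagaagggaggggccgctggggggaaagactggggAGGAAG
Lef1: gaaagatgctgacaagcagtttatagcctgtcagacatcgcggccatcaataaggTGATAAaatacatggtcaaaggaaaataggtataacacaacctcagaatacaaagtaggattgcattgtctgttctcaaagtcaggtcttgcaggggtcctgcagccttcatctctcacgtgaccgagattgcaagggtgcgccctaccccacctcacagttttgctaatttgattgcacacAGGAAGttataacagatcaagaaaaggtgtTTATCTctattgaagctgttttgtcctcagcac
Col9a1: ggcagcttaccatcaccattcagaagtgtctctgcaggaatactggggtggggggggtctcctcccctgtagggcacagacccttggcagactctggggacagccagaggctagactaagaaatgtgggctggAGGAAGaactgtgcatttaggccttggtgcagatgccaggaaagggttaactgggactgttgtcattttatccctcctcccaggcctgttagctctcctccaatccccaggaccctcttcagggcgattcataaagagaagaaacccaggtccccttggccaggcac
Egfl7: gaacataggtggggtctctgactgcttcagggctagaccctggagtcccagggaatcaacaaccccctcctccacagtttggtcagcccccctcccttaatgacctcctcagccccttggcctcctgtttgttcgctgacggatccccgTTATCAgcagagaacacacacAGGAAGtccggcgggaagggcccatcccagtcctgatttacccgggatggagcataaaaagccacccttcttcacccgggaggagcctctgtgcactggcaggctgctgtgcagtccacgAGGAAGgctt
Robo4: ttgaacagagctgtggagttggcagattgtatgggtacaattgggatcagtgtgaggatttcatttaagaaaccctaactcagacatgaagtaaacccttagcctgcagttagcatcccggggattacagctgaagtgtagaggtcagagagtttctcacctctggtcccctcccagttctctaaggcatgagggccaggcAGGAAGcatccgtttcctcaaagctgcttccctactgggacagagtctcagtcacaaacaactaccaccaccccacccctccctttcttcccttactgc
Itga2b: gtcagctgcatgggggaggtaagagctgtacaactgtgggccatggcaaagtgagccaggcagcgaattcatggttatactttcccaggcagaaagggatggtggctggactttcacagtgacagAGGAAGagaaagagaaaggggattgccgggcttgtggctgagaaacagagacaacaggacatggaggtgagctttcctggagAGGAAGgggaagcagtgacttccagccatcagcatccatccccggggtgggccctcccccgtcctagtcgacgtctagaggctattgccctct

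Bmp4 encodes a secreted BMP ligand of early mesoderm, Lef1 a nuclear effector of Wnt signalling, and Col9a1 a chain of collagen IX. Egfl7 encodes a secreted endothelial protein, Robo4 an endothelial guidance receptor, and Itga2b the integrin chain (CD41) of megakaryocytes and the first blood progenitors. The region at the later Col9a1 start scored 826.45 and 224.93 in CPC replicates 1 and 2. The last Lef1 start scored 111.11 and 84.46, and the Bmp4 start 155.41 and 50.44, the latter just above the lowest score the authors kept, about 50. The Bmp4 region had a peak in 1 induced CPC library and 1 induced EPC library. Its call was lost when merging required a reciprocal overlap of 0.5. The Itga2b start scored 365.13 and 206.93 in EPC replicates 1 and 2, the second Egfl7 start 160.78 and 64.68, and the Robo4 start 112.56 and 157.37. The score is the authors' own value, minus 10 times the log10 of a peak's p-value in the MACS 1.4 format, and it served only to describe and rank peaks within a list.

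In the printed windows ETS letters occurred in all 6, with 2 matches each in Egfl7 and Itga2b, and GATA letters in Lef1 and Egfl7 only. The windows are a selection from the top-scoring and list-gene starts. Of the others, Plekhb1, Tas2r126, Nes and Ripply2 had no ETS letters. Mgat1, Mrtfb, Adcyap1r1, Tmem86b, Zfp385a, Rgs3 and Fgf3 had them. Over 21238 RefSeq promoters of 17469 protein-coding genes, ETS letters were present in 34.4% and GATA letters in 15.9%. The start site lay in a CPC-only region for 119 promoters (0.56% of all) and in an EPC-only region for 156 (0.735%). ETS letters were found in 41 of the 119 (34.5%, exact 95% interval 26 to 43.7) and in 64 of the 156 (41%, 33.2 to 49.2). GATA letters were found in 19.3% (12.7 to 27.6) and 21.8% (15.6 to 29.1). These intervals overlap between the cell types for both motifs. Intervals throughout cover counting error only, and a match of letters is a description, not a bound site.

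Start sites open in all lists had more CpG than those of either cell type set. The median number of CpG was 13 per window for CPC-only starts and 17 for EPC-only starts, against 22 for the 9259 starts open in all 4 lists and 3 for the 9460 starts in no region. GATA letters stood in 7.86% of the windows open in all lists and in 25% of those in no region. The part of base composition in the motif shares was not tested. SOX letters, which were ACAAAG and in a second form ACAATG, were present in 20.2% (13.4 to 28.5) of CPC-only and 30.1% (23.1 to 38) of EPC-only starts, against 25.7% of all promoters, again with overlapping intervals. TEAD letters (GGAATG) were present in 10.1% and 16.7%, against 13.6% of all.

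The 4 lists held 27540 and 23068 peaks in CPC and 27934 and 23694 peaks in EPC. The second replicate was the shorter list in both cell types. The mean was 25304 ± 3162 (SD, n = 2) in CPC and 25814 ± 2998 in EPC, and the ranges overlapped. The covered length, the median peak width, the share of peaks near a gene boundary and the share inside a gene body also overlapped between the cell types. Each of the 5 measures had p = 0.667 in the two-sided exact permutation test (adjusted p = 0.667), and 2 against 2 libraries cannot give a p below 0.333. Read counts were not part of the lists, so depth is unknown and a missing peak can come from a shallower library. Replicates are not stated to be separate cultures, and p-values therefore reflect only the spread of these samples, which may be technical.

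Replicates shared more regions than lists of different cell types did. Of the regions in either list of a pair, 64.5% were shared between the CPC replicates and 65.4% between the EPC replicates. The 4 pairs across cell types shared 50.8% to 52.9%. A peak in 1 list alone was more common than a cell type call, with 6004 such regions in CPC lists and 6367 in EPC lists.

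**Figure D1:**
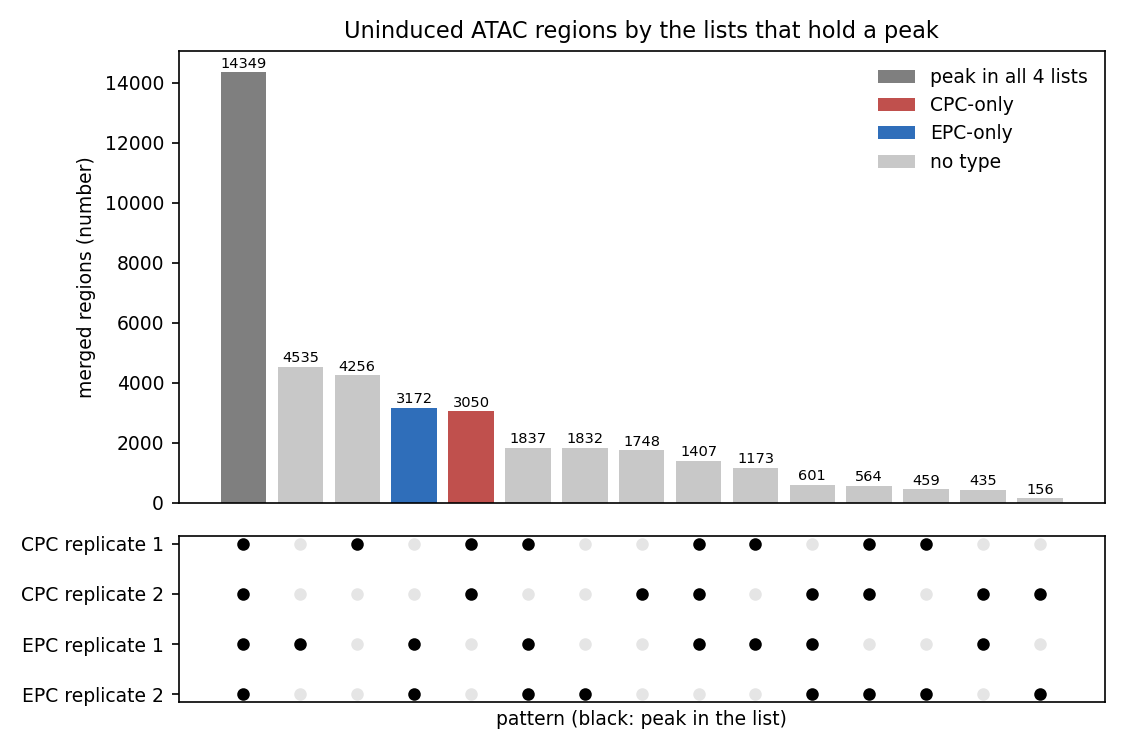
Number of merged regions for each pattern of presence over the 4 uninduced lists, with the pattern drawn as black points under each bar. Regions in all 4 lists (14349) form the tallest bar, regions in EPC replicate 1 alone (4535) and CPC replicate 1 alone (4256) follow, and the EPC-only (3172) and CPC-only (3050) sets come next.

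The regions near the edge of the rule scored low. The lower of a region's 2 scores had a median of 75.1 in the CPC-only set and 75.7 in the EPC-only set. A further 1971 regions missed the CPC-only call through a peak in 1 EPC list, whose median score was 79.2, and 2438 missed the EPC-only call through 1 CPC peak with a median of 79.7. Regions in all 4 lists were stronger, with median scores of 333 and 199.9 in CPC and 407 and 246.9 in EPC, against 116 and 82.3 in CPC for CPC-only regions and 111.2 and 84.6 in EPC for EPC-only regions.

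At the receptor genes used for the sort, Pdgfra had a CPC-only region and Kdr had no EPC-only region. The CPC-only region of Pdgfra (chromosome 5, 75149707 to 75150647) lay 1.6 kb upstream of a RefSeq start and scored 55.56 and 105.52 in CPC replicates 1 and 2. A second region inside Pdgfra (75154593 to 75156890) had a peak in all 4 lists, with scores of 463.2 and 63.18 in CPC and 281.98 and 119.85 in EPC. Open chromatin at Pdgfra was present in the EPC lists too. The Pdgfra start site itself held no peak in any list. The region at the Kdr start (chromosome 5, 75977637 to 75979064) was present in all 4 lists, with scores of 55.36 and 88.66 in CPC and 394.35 and 117.92 in EPC. A region inside Kdr, 15.4 kb downstream of the start (75961649 to 75963085), scored 1010.8 and 415.26 in EPC and 105.63 in CPC replicate 2, with no peak in CPC replicate 1. FLK1, the product of Kdr, was selected for in both gates. Scores depend on the library, and regions in all 4 lists had higher median scores in EPC in general, so the Kdr scores were not compared between cell types. With a score minimum of 100 the Pdgfra call was lost and Kdr gained an EPC-only region. With all lists trimmed to the length of the shortest the Pdgfra call was also lost.

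**Figure D2:**
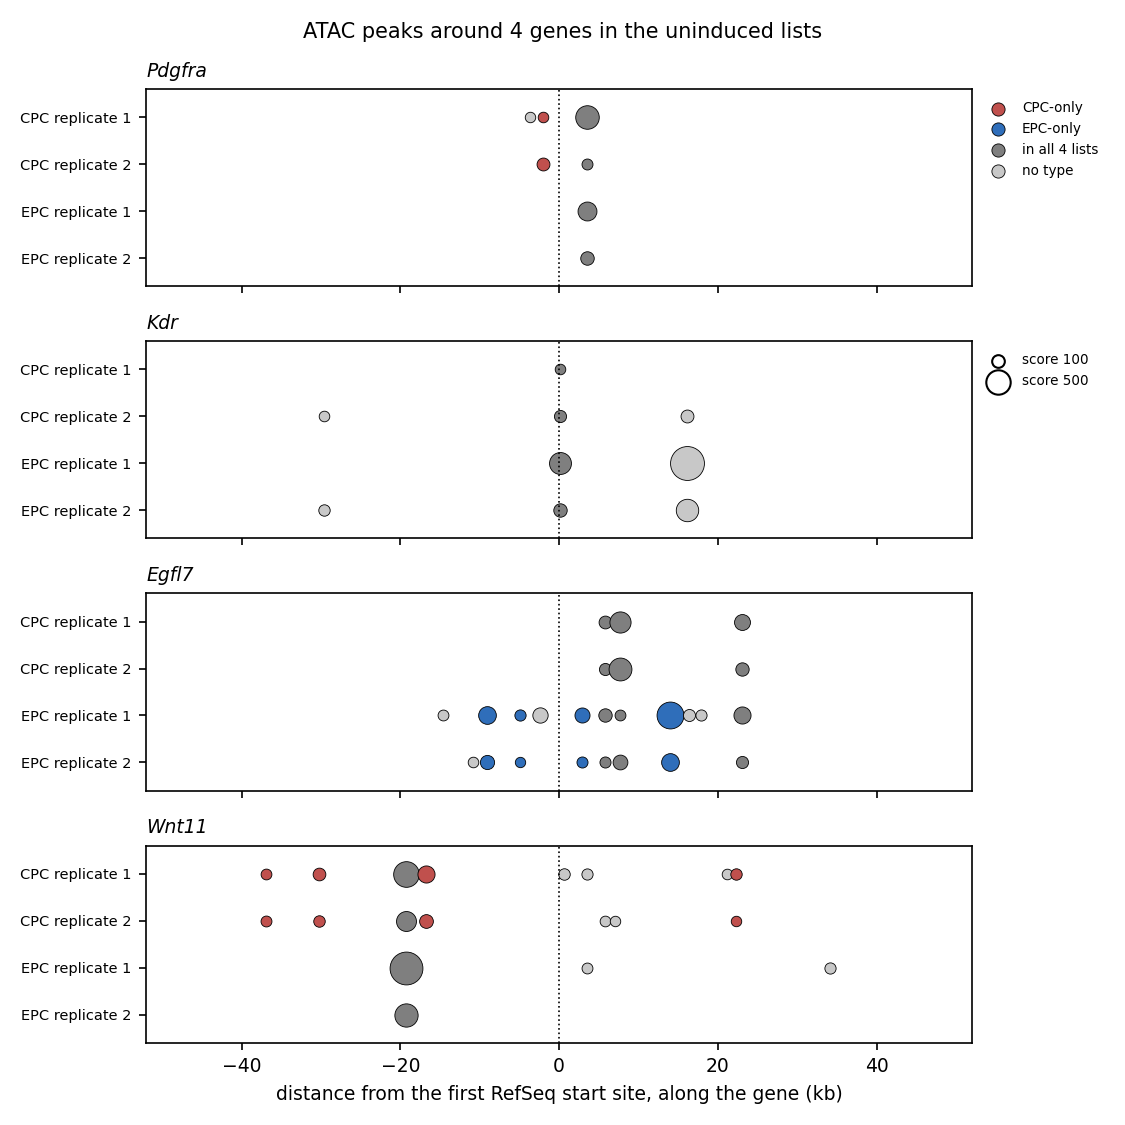
Peaks within 50 kb of the first RefSeq start of Pdgfra, Kdr, Egfl7 and Wnt11, whichever gene is nearest, in each uninduced list, against distance from the start along the gene (kb), with point area growing with the score. Egfl7 has 4 EPC-only regions in this window and Wnt11 has 4 CPC-only regions, while the region at the Kdr start is present in all 4 lists.

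Each region was assigned to the protein-coding genes it overlapped, or otherwise to the nearest within 50 kb. Of 21887 genes, 1857 (8.48%) had at least 1 CPC-only region and 2138 (9.77%) at least 1 EPC-only region, and 423 had both (22.8% of the former and 19.8% of the latter). The 33984 regions assigned to genes were CPC-only in 6.57% and EPC-only in 7.46% of cases. These shares are the background for the gene lists, which carry no test. A gene with more regions can be called more readily. The median number of regions per gene was 1 over all genes and 2 to 6 over the lists. Per library, 69.9% and 58% of these regions had a peak in CPC and 72.2% and 60.8% in EPC.

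Genes of the endothelial surface leaned towards EPC. Of 20 genes for junction, adhesion and receptor proteins of endothelium, 7 had an EPC-only region and 0 had a CPC-only region. Their 51 regions had a peak in 20 and 14 cases in the CPC lists and in 42 and 28 cases in the EPC lists. As shares these were 39.2% and 27.5%, and 82.4% and 54.9%, so the cell types did not overlap. The share in EPC replicate 2 was below the 60.8% of all regions assigned to genes. At the RefSeq starts of 12 of these genes the cell types met, with 4 and 2 peaks in CPC and 6 and 4 in EPC. The Cd34 start had a peak in CPC replicate 1 only. EPC-only regions made up 13 of the 51 (25.5%). Cdh5, the cadherin of endothelial junctions, had 4, of which the strongest lay inside the gene and scored 369.62 and 51.86 in EPC replicates 1 and 2. Egfl7 had 3, the strongest of them 8.49 kb upstream of its first start with scores of 240.95 and 138.06. Tek, the angiopoietin receptor, had 2, with 266.84 and 106.78 in a region inside the gene. Cd34, Icam2, Mcam and Robo4 had 1 each, and the Cd34 region, 33.7 kb outside the gene, scored 263.24 and 282.81. The Cdh5 and Tek regions with scores given here had a peak in every induced library. Those of Egfl7 and Cd34 had one in both induced EPC libraries and in neither induced CPC library. Cdh5, Icam2 and Mcam lost the call at a score minimum of 100, and the other 4 genes kept it. With a gain elsewhere in the list, 5 of the 20 genes had an EPC-only call there.

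Endothelial transcription factor genes leaned the same way. Of 15 genes, 8 had an EPC-only region and 1 had a CPC-only region, and their 77 regions had a peak in 37 and 35 cases in CPC and in 68 and 46 cases in EPC. The share in EPC replicate 2, 59.7%, was just below the 60.8% of all regions assigned to genes. Fli1, an ETS factor of endothelium and blood, had 4 EPC-only regions with scores from 79.86 to 180.9. Ets1 had 2, the stronger inside the gene with 504.11 and 235.79 and a peak in every induced library. Erg, the ETS factor that maintains endothelial identity, had an EPC-only region 18.7 kb downstream of a start (581.56 and 229.79) and a CPC-only region 67.8 kb downstream (395.47 and 159.43 in CPC), both inside the gene. Different regions of Erg were called in the 2 cell types, and the EPC-only one had a peak in the induced EPC libraries alone. A region 6.71 kb outside Sox7, the gene whose transgene the line carries, was EPC-only with 523.81 and 494.55 and had a peak in both induced EPC libraries and in neither induced CPC library. Mef2c had 3 EPC-only regions, Etv6 had 2, and Tal1 and Bcl6b had 1 each. Etv2, an ETS factor at the top of the endothelial and blood hierarchy, had a peak at its start in all 4 lists and no cell type region. At a score minimum of 100 the count was again 8 of 15 genes, but not the same 8: Bcl6b lost its call, and Mef2c was called only through a region outside the EPC-only set.

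Blood genes leaned towards EPC as well. Of 23 genes, 11 had an EPC-only region and 4 had a CPC-only region. Their 81 regions had a peak in 46 and 37 cases in CPC and in 67 and 56 in EPC, and 18 (22.2%) were EPC-only. Gata2, a factor of blood stem cells and endothelium, had a region 4.05 kb downstream of a start with 451.28 and 137.49 in EPC. Tal1, which specifies blood from mesoderm, had a region 13.5 kb downstream with 178.9 and 117.36. Ikzf1, a lymphoid and early blood factor, had 2 regions, the stronger with 291.12 and 231.45. Spi1, the factor PU.1 of myeloid cells, had 3, and Zfpm1, the partner of GATA1, had 4, all with at least 1 score below 100. A region 1.45 kb outside the embryonic globin gene Hbb-bh1 scored 192.36 and 112.75 and had a peak in every induced library. The Gata2 and Tal1 regions had one in the induced EPC libraries alone. Gata1, Ptprc, Cbfa2t3, Itga2b and Meis1 had EPC-only regions as well. Among the 4 genes with CPC-only regions were Runx1, required for the emergence of blood stem cells, with 337.01 and 191.06 in CPC at 47.3 kb downstream of a start inside the gene, and Lmo2, with 115.57 and 115.48 at 10.8 kb outside the gene. At a score minimum of 100 Gata1, Spi1, Zfpm1, Ptprc and Meis1 lost the EPC-only call and Gfi1b the CPC-only call. Other blood genes gained the EPC-only call there, so 9 of 23 had one. Cbfa2t3 kept its EPC-only call and Meis1 its CPC-only call only through regions outside the reported sets.

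FLK1+ cells can include blood progenitors, and the blood list moved together with the endothelial lists. Tal1 is on both the blood list and the endothelial factor list. Of 19 blood genes with a RefSeq start, 11 and 11 had a peak there in CPC and 13 and 12 in EPC. Among all 17469 protein-coding genes with such a start, 9394 and 8610 did in CPC and 9496 and 8958 in EPC. Klf1, an erythroid factor, the embryonic globin gene Hba-x, Gata1, Gfi1b and Ptprc had no start peak in any list. Itga2b had one in both EPC lists and in neither CPC list, and Gata2 and Cbfa2t3 in both EPC lists and 1 CPC list. Ikzf1 had one in both CPC lists and 1 EPC list. The part of blood cells in the endothelial result was not tested. In bulk samples fewer cells of a type and less open chromatin per cell cannot be told apart.

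Receptors and ligands of vessel growth were split. In the VEGF system 2 of 10 genes had an EPC-only region and 1 had a CPC-only region. Flt1, a decoy receptor for VEGF, had an EPC-only region inside the gene, 67.3 kb downstream of a start, with scores of 1014.66 and 625.82, and a second with 96.89 and 77.68. Nrp2, a VEGF and semaphorin co-receptor, had 1 EPC-only region (136.49 and 124.82) and 2 CPC-only regions (the stronger 279.07 and 135.63). Of 11 angiopoietin, apelin and sphingosine phosphate genes, 3 had EPC-only regions (Tek, Aplnr and S1pr1) and 2 had CPC-only regions (Angpt4 and S1pr1). The Aplnr region, 6.12 kb outside the apelin receptor gene, scored 462.4 and 170.58 and had a peak in every induced library. Of 15 Notch and arterial genes, 3 had CPC-only regions (Notch1, Hes1 and Efnb2) and 1, Efnb2, had an EPC-only region. The share of EPC-only regions in that list, 1.96%, was below the background of 7.46%. At a score minimum of 100 Angpt4, Notch1 and Hes1 lost the CPC-only call, Efnb2 the EPC-only call, and S1pr1 both.

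Smooth muscle and mesenchyme genes leaned towards CPC. Of 15 smooth muscle and mesenchyme genes, 5 had a CPC-only region and 0 had an EPC-only region. Their 27 regions had a peak in 21 and 15 cases in CPC and in 7 and 9 in EPC, and 7 (25.9%) were CPC-only. The share in CPC replicate 2, 55.6%, was just below the 58% of all regions assigned to genes. Actg2, a smooth muscle actin, had a region inside the gene with 418.6 and 183.07 in CPC replicates 1 and 2, with no peak there in any induced library. Col3a1 and Col1a1, fibrillar collagens of mesenchyme, had regions with up to 273.85 and 141.44 and up to 236.2 and 158.3. Pdgfrb, the PDGF receptor of mural cells, had 2 regions inside the gene, the stronger with 281.4 and 163.85. Myh11, the smooth muscle myosin, had 1 with 60.12 and 72.83, which was lost at a score minimum of 100.

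The PDGF system, which includes the receptor of the sort, followed with 3 of 6 genes (Pdgfra, Pdgfrb and the ligand Pdgfc) holding CPC-only regions and 0 holding EPC-only regions. Their 19 regions had a peak in 12 and 10 cases in CPC and in 7 and 4 in EPC. The CPC shares, 63.2% and 52.6%, were below the 69.9% and 58% of all regions assigned to genes. The EPC shares were 36.8% and 21.1%, against 72.2% and 60.8%. The 2 Pdgfrb regions are also counted in the smooth muscle and mesenchyme list. The count fell from 3 genes to 1 at a score minimum of 100.

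Wnt genes were called CPC-only more often than EPC-only. Of 21 genes, 6 had CPC-only regions and 2 had EPC-only regions. Their 78 regions had a peak in 61 and 48 cases in CPC and in 42 and 32 in EPC, and 13 (16.7%) were CPC-only. Wnt11, a ligand of heart formation, had 4 CPC-only regions, of which that 16.3 kb upstream of the start scored 222.38 and 126.31 in CPC. Wnt2, a ligand of the early heart and lung, had 2, with 170.3 and 90.96 in the stronger. Fzd10, a Frizzled receptor, had 2, the stronger 15.5 kb outside the gene with 256.89 and 161.88. Lef1 had 2 and an EPC-only region besides (80.29 and 57.92). Tcf7l1, a repressor of Wnt targets, had 2, and Axin2, a feedback inhibitor, had 1 with 87.81 and 52.38. The second gene with an EPC-only region was Fzd7 (70.85 and 71.98). At a score minimum of 100 no Wnt gene had an EPC-only region, and Wnt2, Lef1 and Axin2 lost the CPC-only call.

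Cardiac transcription factor genes were called in both cell types. Of 19 genes, 8 had CPC-only regions and 6 had EPC-only regions, above the background shares of 8.48% and 9.77% in both directions. These genes had a median of 4 regions, against 1 over all genes. At the region level 14% were CPC-only and 9.3% EPC-only, against backgrounds of 6.57% and 7.46%. Their 86 regions had a peak in 59 and 55 cases in CPC and in 55 and 44 in EPC, so the 2 cell types met at 55. Gata5, a GATA factor of the early heart, had 2 CPC-only regions, the stronger 19.7 kb upstream of a start with 392.12 and 127.16. Smarcd3, a cardiac chromatin remodelling subunit, had 2, the stronger with 225.87 and 193.92. Tbx20 had 2 CPC-only regions upstream (147.27 and 113.43, and 110.24 and 103.02) and an EPC-only region inside the gene (50.38 and 82.39). Hand2, a factor of the heart and its outflow, had 1 with 128.76 and 113.58 at 0.596 kb outside the gene, and Tbx2 had 2. Gata4, Gata6 and Myocd had 1 each, and the Gata4 region scored only 59.76 and 53.53.

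The EPC-only calls among cardiac factors included Nkx2-5, a central cardiac factor, with a region 8.73 kb upstream of its start that scored 160.5 and 112.81 in EPC. Hopx had 242.44 and 161.61, Mef2c had 3 regions with scores from 51.52 to 89.17, and Gata6 and Hand1 had 1 region each with both scores below 100. At a score minimum of 100 Gata4, Gata6 and Myocd lost the CPC-only call, and Hand1 and Tbx20 the EPC-only call. The EPC-only regions of Gata6 and Mef2c given here were lost too, and both genes were called only through regions outside the EPC-only set. Counting only regions within 10 kb of a gene lowered the numbers from 8 to 4 genes for CPC-only and from 6 to 3 for EPC-only.

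Heart muscle genes did not lean either way. Of 26 genes for contraction and calcium handling, 5 had CPC-only regions and 5 had EPC-only regions. Ryr2, the calcium release channel, had a CPC-only region (273.23 and 153.78) and an EPC-only region (496.91 and 395.62), and Slc8a1, the sodium-calcium exchanger, also had both kinds. Smyd1, a muscle methyltransferase, had a CPC-only region with 149.51 and 127.24, while the regions of Myl3 and Tnnt2 scored below 100 in both CPC lists. Tnni1, a slow troponin I, and Myl7, the atrial myosin light chain, had EPC-only regions, with 314.19 and 101.93 for Tnni1. At a score minimum of 100 Myl3, Tnnt2 and Slc8a1 lost the CPC-only call, and Myl7 and Cacna1c the EPC-only call.

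BMP genes, which pattern mesoderm, had CPC-only regions in 6 of 19 cases and EPC-only regions in 4. Among ligands, Bmp4 had a CPC-only region and Bmp7 had both kinds. Of the intracellular effectors, Smad1 had 2 EPC-only regions (178.27 and 102.52, and 128.92 and 150.33), whereas Smad5 had a CPC-only region (179.09 and 62.81). The inhibitory Smads were also divided, with a CPC-only region at Smad6 and an EPC-only region at Smad7. The secreted BMP antagonist Nog had a CPC-only region 42 kb outside the gene (248.07 and 207.46). At the region level both shares in this list were 6.98%, close to the background. Bmp4, Smad5, Id1 and Bmpr2 lost the call at a score minimum of 100. The reported regions of Smad6 and Smad7 were lost as well, and these genes were called only through regions outside the reported sets.

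FGF genes had each kind in 3 of 14 cases. Fgf3 had 3 EPC-only regions, of which that 26 kb upstream of the start scored 572.74 and 399.02 in EPC and that at the start 95.11 and 225.36. Fgf10, a ligand of the second heart field, had a CPC-only region (98.75 and 78.52) and 2 EPC-only regions (the stronger 513.41 and 247.49). Among receptors, Fgfr3 had a CPC-only region and Fgfr2 an EPC-only region, of which that of Fgfr2 was lost at a score minimum of 100, as was the CPC-only region of Fgf10.

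Lists of other cell types that the sorted fractions could hold were also called, some above the backgrounds of 8.48% of genes for CPC-only and 9.77% for EPC-only. Of 16 early mesoderm genes, 2 had CPC-only regions (Snai1 and Cdx2) and 1 had an EPC-only region (Eomes). Snai1 lost the call at a score minimum of 100, and Eomes kept its call only through a region outside the EPC-only set. Of 16 paraxial mesoderm genes, 1 had CPC-only regions (Foxc1) and 3 had EPC-only regions (Meox1, Tcf15 and Ripply2, 18.8%), and none of the 3 had one at a score minimum of 100. Of 19 endoderm genes, 3 had CPC-only (15.8%) and 4 had EPC-only regions (21.1%), with Cubn, an endocytic receptor of visceral endoderm, at 622.55 and 225.47 in EPC. Of 18 pluripotency genes, 1 had a CPC-only region and 2 had EPC-only regions, all with scores below 100. Of 14 neural genes, 4 had CPC-only (28.6%) and 3 had EPC-only regions (21.4%), shares that are no lower than those of heart muscle genes (19.2% each). At the region level the neural shares were 8.7% and 6.52%, against 6.57% and 7.46% over all regions assigned to genes. Those of heart muscle genes were 8.62% and 10.3%. All 4 neural CPC-only calls, and the EPC-only calls of Sox1 and Pax7, were lost at a score minimum of 100. Other neural genes gained the EPC-only call there, so 3 had one. The part of other cells in the lists was not tested. Of 16 housekeeping genes, 0 had CPC-only and 2 had EPC-only regions, and 60.6% of their regions were open in all 4 lists. Their 33 regions had a peak in 23 and 24 cases in CPC and in 32 and 27 in EPC. The cell types thus did not overlap in the housekeeping list either.

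**Figure D3:**
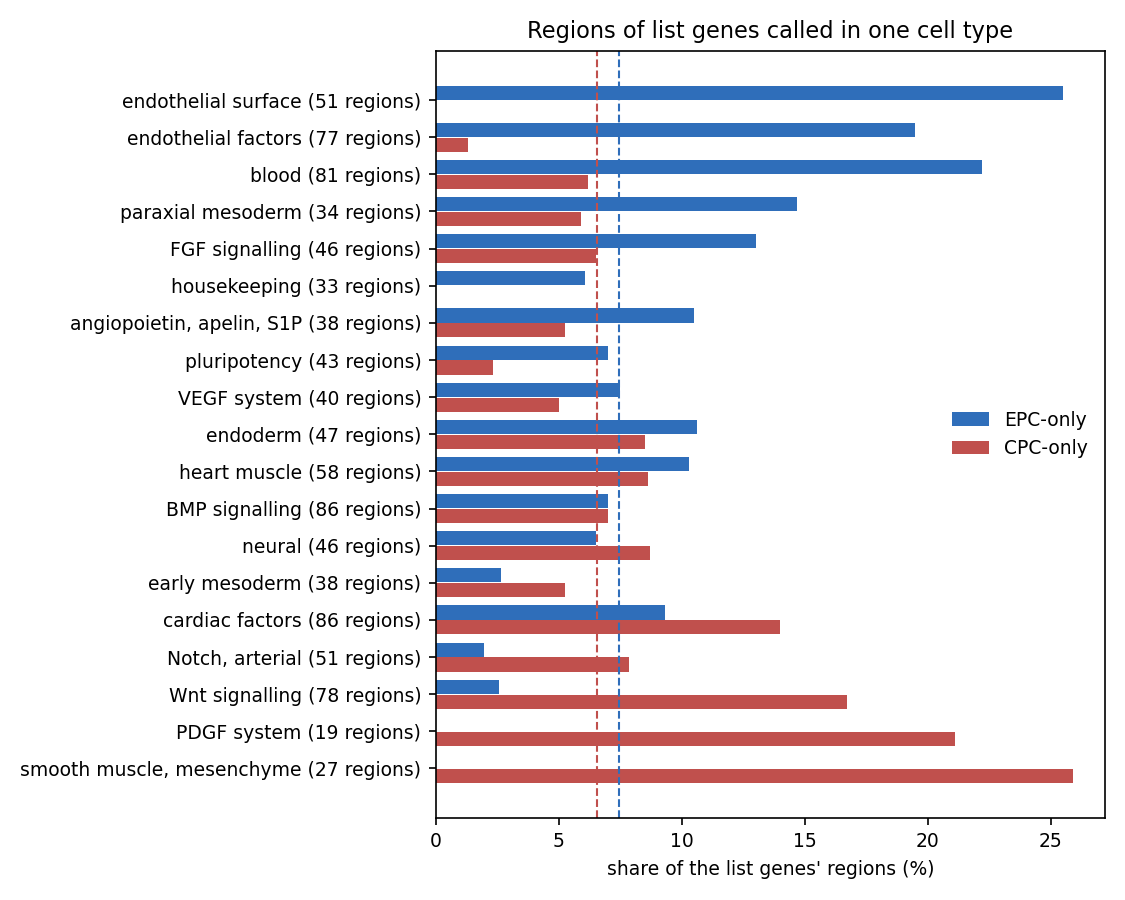
Share of the regions assigned to each gene list that were EPC-only (blue) or CPC-only (red), with dashed lines at the shares over all 33984 regions assigned to genes (7.46% and 6.57%). EPC-only shares are furthest above the blue line in the endothelial surface (25.5%), blood (22.2%) and endothelial factor (19.5%) lists, and the paraxial mesoderm (14.7%), FGF (13%), endoderm (10.6%), angiopoietin (10.5%), heart muscle (10.3%), cardiac factor (9.3%) and, barely, VEGF (7.5%) lists exceed it too. CPC-only shares are furthest above the red line in the smooth muscle and mesenchyme (25.9%), PDGF (21.1%) and Wnt (16.7%) lists, and the cardiac factor (14%), neural (8.7%), heart muscle (8.62%), endoderm (8.51%), Notch (7.84%) and BMP (6.98%) lists exceed it too.

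In the CPC-only set the start sites with the highest mean scores were the second of 3 starts of Mgat1, an enzyme of N-glycan synthesis (680.57 and 428.93 in CPC), and the later start of Col9a1. The other 2 Mgat1 starts were open in all 4 lists. Mrtfb, a coactivator of serum response factor, Adcyap1r1, a neuropeptide receptor, and Plekhb1 came next, with scores from 180.8 to 367.16, at the last of 3 starts in Mrtfb and the last of 2 in Plekhb1. In the EPC-only set Tmem86b (521.57 and 478.44), Zfp385a (614.84 and 311.89), Tas2r126 (648.53 and 204.62) and Rgs3 (474.48 and 104.48) led, with Itga2b as the fifth. Zfp385a and Rgs3 have a second start, which held no EPC-only region. Nes and Ripply2 were the remaining list genes that started in EPC-only regions, besides Fgf3, Egfl7 and Robo4. Chosen after their values were seen, Tcf21, a factor of epicardial and mesenchymal cells, started in a CPC-only region (192.36 and 60.47). Chosen likewise, Edn1, the endothelial peptide endothelin, started in an EPC-only region (260.66 and 112.75), as did Pf4, a megakaryocyte chemokine (243.99 and 188.14), and Epb42, a red cell membrane protein (401.87 and 93.4).

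The 10 regions of highest mean score in each set were assigned to genes outside the lists or to none. The strongest CPC-only region (chromosome 3, 112669807 to 112671024) scored 1805.71 and 1176.58 and had no protein-coding gene within 50 kb. The next lay inside Zfp957 (894.55 and 631.08), inside Tox (997.41 and 486.49) and 36.8 kb outside Fbxl17 (1155.96 and 322.96). Usp29, Afap1l2, Adamts16 and Galnt10 held 4 of the rest, and 2 had no gene nearby. The strongest EPC-only region (chromosome 1, 125662594 to 125663736) lay 13.3 kb upstream of Gpr39 and scored 2279.08 and 1107.71. It had a peak in all 4 induced libraries. Regions inside Dlgap1 (1783.36 and 1061.43) and 1.4 kb outside Casp12 (1431.02 and 1102.22) followed. Cd226, Eif3h, Tmbim7, Abca12, Thbs1 and Lrrc8b were the nearest genes of 6 others, and 1 had no gene nearby. Thbs1, the matrix protein thrombospondin, lay 44.7 kb from its region.

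Cell type regions lay far from gene ends more often than regions open in all lists. A gene boundary was within 1 kb for 7.84% (6.91 to 8.85) of CPC-only and 10.3% (9.24 to 11.4) of EPC-only regions, against 60.8% (60 to 61.6) of regions in all 4 lists. More than 50 kb from any protein-coding gene lay 26.8% (25.2 to 28.4) of CPC-only and 20.1% (18.7 to 21.5) of EPC-only regions. Inside a gene body lay 46% (44.2 to 47.8) and 51.1% (49.3 to 52.9). The counting intervals of CPC-only and EPC-only regions did not meet for any of these shares, but regions are not independent replicates. Over all peaks, the share within 1 kb of a boundary was 40.6% and 43.2% in the CPC lists and 40.8% and 44.3% in the EPC lists. Whether the 2 sets differ beyond such a spread of libraries was not tested. Median widths were 911 bp for CPC-only and 897 bp for EPC-only regions, and 1338 bp for those in all lists. With a score minimum of 100 the share near a boundary was 8.96% in the CPC-only and 16.6% in the EPC-only set.

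**Figure D4:**
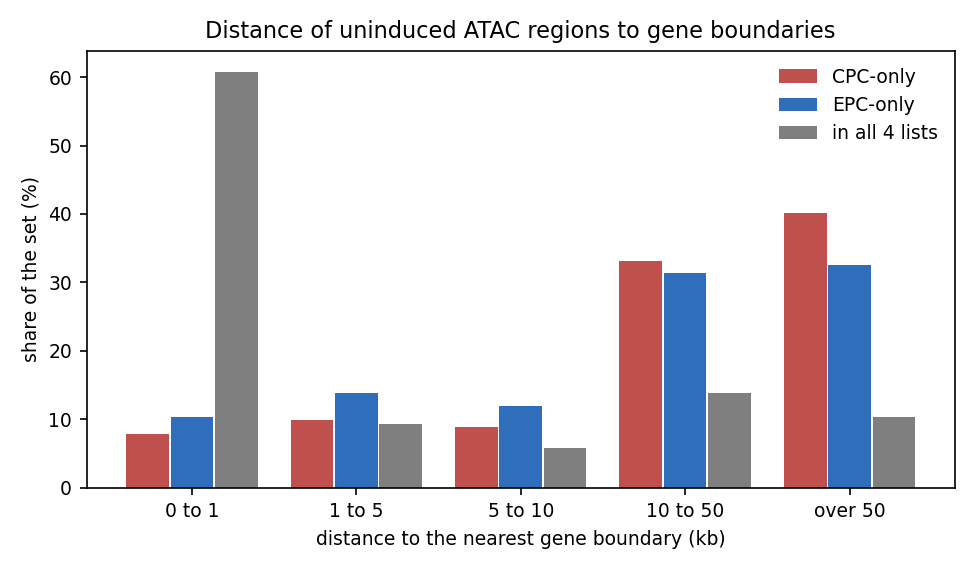
Share of each set (%) by distance to the nearest gene boundary, inside or outside the gene (kb), for CPC-only (red), EPC-only (blue) and all-list (grey) regions. Regions in all 4 lists peak at 0 to 1 kb (60.8%), and CPC-only regions are most frequent beyond 50 kb (40.2%, EPC-only 32.5%).

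Regions of a cell type lay near others of their own type. A second CPC-only region lay within 50 kb of 22.3% of CPC-only regions, and an EPC-only region lay within that distance of 15.4%. For EPC-only regions the shares were 23.5% with a further EPC-only region and 14.6% with a CPC-only region. Regions in all 4 lists had a CPC-only neighbour in 15.3% and an EPC-only neighbour in 20.6% of cases.

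The induced libraries, which took no part in the rule, differed between the cell types in the same direction. CPC-only regions had a peak in 64.6% and 58% of cases in the induced CPC libraries and in 16.8% and 20.3% in the induced EPC libraries. EPC-only regions had a peak in 69.5% and 72.4% in induced EPC and in 26.2% and 24.1% in induced CPC. The libraries of the 2 cell types did not overlap for either set. The means for CPC-only regions were 61.3% ± 4.61 (SD, n = 2) in CPC and 18.5% ± 2.48 in EPC, a difference of 42.79 points (two-sided exact permutation p = 0.333, the smallest possible, adjusted p = 0.5). The means for EPC-only regions were 25.1% ± 1.47 and 70.9% ± 2.03, a difference of -45.79 points (exact permutation p = 0.333, adjusted p = 0.5). Regions open in all 4 uninduced lists had a peak in 96.3% to 97.5% of cases in every induced library.

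Strong cell type regions were found again more often. Among CPC-only regions whose lower score was at least 200 (188 regions), 94.7% had a peak in induced CPC replicate 1, against 55.9% of the 2140 regions between 50 and 100. Among EPC-only regions the same shares were 98.4% and 60.6% in induced EPC replicate 1. The share found in the other cell type rose with score as well, from 15.9% to 25.5% for CPC-only regions in induced EPC replicate 1. All 4 induced libraries held 262 CPC-only regions (8.59%) and 436 EPC-only regions (13.7%). In no induced library did 756 CPC-only (24.8%) and 503 EPC-only regions (15.9%) have a peak. A peak in both induced libraries of the other cell type and in neither of their own was found for 14 CPC-only and 10 EPC-only regions.

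**Figure D5:**
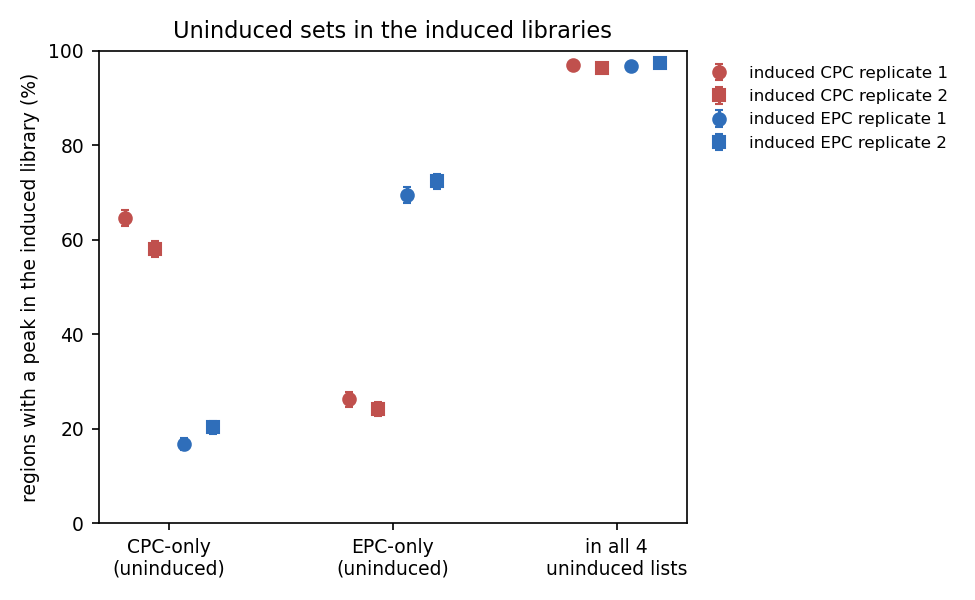
Share of uninduced CPC-only, EPC-only and all-list regions with a peak in each induced library (%), with exact 95% intervals that cover counting error only. For CPC-only regions the induced CPC libraries lie at 58% and 64.6% and the induced EPC libraries at 16.8% and 20.3%, and for EPC-only regions the order is reversed.

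The authors' deposited list of Sox7 sites from anti-Myc ChIP-seq of unsorted cells, with 666 regions, overlapped EPC-only regions more often than CPC-only ones. It overlapped 60 EPC-only regions (1.89%, 1.45 to 2.43) and 11 CPC-only regions (0.361%, 0.18 to 0.644), against 0.831% of all merged regions and 0.955% of those in all 4 lists. The overlaps were 9.01% and 1.65% of the authors' deposited list. Among list genes, an EPC-only region of Egfl7 and both of Ets1 lay on the authors' deposited list. Whether Sox7 binds at these regions in uninduced sorted cells was not measured.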

How the data were processed

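ATAC peak lists of 2 uninduced CPC and 2 uninduced EPC samples were analysed, with 4 induced lists for comparison. The authors deposited 1 peak list per library, and each peak's score is the authors' value from their peak caller. The build is GRCm38 (mm10) per the submitters' processing notes, with Bowtie2, SAMtools, bedtools, MACS 1.4 and Trimmomatic among the tools named, without roles. The authors' deposited Sox7 list gave positions only. Read depth is unknown, so presence of a peak was the only readout per region, and no count test was possible.

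Peaks were merged at 1 bp overlap with Python 3.11.15, pandas 2.3.3 and numpy 2.4.6, positions being converted to 1-based. A region was assigned to each overlapped RefSeq protein-coding gene (GRCm38.p6), otherwise to the nearest within 50 kb. Start sites, strand and sequences came from the RefSeq promoter table, which has no entries for chromosome 18. For 1677 of 1677 overlapping promoter pairs on opposite strands the sequences were reverse complements. Values per library were compared by two-sided exact permutation tests over libraries (scipy 1.17.1) with Benjamini-Hochberg adjustment. Intervals of shares are exact 95% (Clopper-Pearson) and include counting error only. Scripts were tested on simulated peak lists.

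All 302 genes of 20 lists matched the gene table. Some genes are on several lists, among them Tal1, Mef2c, Tek and Pdgfrb, so the lists are not independent. The members and lists were chosen with earlier results of these data known, so no list was tested. Genes named were Pdgfra and Kdr, the 10 regions of each set with the highest mean score, the 10 genes with most regions of each set, list genes with a cell type region, and the 5 highest and the list-gene promoters of each set. The mean score served only for that ranking. Lists of 1 group shared at most 1.04% of peak starts, so none was a copy of another. Alternatives were a score minimum of 100, lists trimmed to the shortest, reciprocal overlap of 0.5, joining within 200 bp, genes within 10 kb, each library left out, and the replicate number as a block. ChIP peak lists, RNA-seq and the other derived lists were not used here.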

Additional observations from a re-analysis of the deposited data

How the results depend on the processing

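The size of both sets depended on the score minimum and on the libraries used. With peaks scoring at least 100, 1630 regions were CPC-only and 1900 EPC-only. Requiring 100 for presence and no peak at any score for absence gave 910 and 976. Leaving out each library in turn gave 3618 to 7326 CPC-only regions, the highest without CPC replicate 2, and 4867 without CPC replicate 1. It gave 3780 to 7750 EPC-only regions, with 5032 without CPC replicate 1, 5086 without EPC replicate 1 and 7750 without EPC replicate 2. A rule over fewer lists is easier to meet. EPC-only minus CPC-only regions, 122 in all lists, was -85 with lists trimmed to the shortest (23068 peaks) and ranged from -3546 (without CPC replicate 2) to 4132 over the left-out libraries, so neither set can be called larger. Trimmed lists gave 2965 and 2880 regions, reciprocal overlap 3086 and 3210, and joining within 200 bp 3006 and 3118.

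Within 1 kb of a gene boundary lay 8.96% of CPC-only, 16.6% of EPC-only and 68.9% of all-list regions at a score minimum of 100, and 11.9% of EPC-only and 62.6% of all-list regions with trimmed lists. Inside genes lay 48.2% of CPC-only and 84.6% of all-list regions at 100, and 80.8% of all-list regions with trimmed lists. The differences between induced CPC and EPC libraries kept their sign, at 39.52 to 49.17 points for CPC-only and -49.63 to -42.1 points for EPC-only regions. Of the list genes, 27 of 56 had a CPC-only and 34 of 63 an EPC-only region at 100, and 25 and 28 when absence was required at any score, which leaves only regions of the reported sets. Other list genes gained a call at 100, so the losses named for each list are not net counts. Over all 1380 values recomputed, 1022 stayed within their limit, 356 moved and the 2 given above changed sign. The 1022 include the values with the replicate number as a block, which could not change.

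The labels give both cell types replicate numbers 1 and 2 without saying that these pair cultures, and deviations of same-numbered lists had a correlation of -0.0113 over regions. With the replicate number as a block the exact permutation p was 0.5 for the 5 measures per library and both induced comparisons. That is the smallest p that 2 pairs allow. For the sets the block rule is the same as the main rule, so the 3050 and 3172 regions could not change. The unknown depth limits every absent peak.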

Other observations

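Several long genes held many cell type regions. Nfia, a transcription factor of the nuclear factor I family, had 6 EPC-only and 0 CPC-only regions among 20, over a gene of 541 kb. Slc44a5 had 5 EPC-only and 0 CPC-only regions among 14. Klhl29 had 5 CPC-only and 0 EPC-only regions among 13, and Stau2, an RNA-binding protein, had 5 CPC-only and 1 EPC-only among 8. Gli2, a transcription factor of Hedgehog signalling, had 4 CPC-only and 1 EPC-only region among 19. Other long genes held both kinds, with 6 CPC-only and 4 EPC-only regions in Ptprn2 (792 kb), 5 and 4 in Cntn5, 4 and 3 in Auts2, and 4 and 5 in Frmd4a. Zfp978, in a cluster of near-identical zinc finger genes, had 2 CPC-only and 5 EPC-only regions among 50, and reads of such copies may not be placed with certainty. At least 4 CPC-only regions were found at 23 genes and at least 4 EPC-only regions at 25.

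Cell type regions lay on all chromosomes. On the autosomes CPC-only regions made up 6.45% (chromosome 7) to 9.55% (chromosome 16) of the merged regions, and EPC-only regions 6.76% (chromosome 19) to 9.38% (chromosome 18). On the X chromosome both shares were 7.69%.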
